A study of Mus musculus with 24 samples.

Results

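The miR-200 family comprises microRNAs (miRNAs) cut from 5 hairpin precursors, and 9 of its mature arms were followed here through 4 stages of mammary gland development in mice. The members were chosen by name: the 3p arms mmu-miR-200a-3p, mmu-miR-200b-3p, mmu-miR-429-3p, mmu-miR-200c-3p and mmu-miR-141-3p, and the 5p arms of miR-200a, miR-200b, miR-200c and miR-141. All 9 were among the 1009 miRNAs listed, and all 9 were among the 544 miRNAs whose average reached 1 RPM (1 read in every 1000000 assigned reads) in any group of mice. The animals were female C57BL/6 mice with no transgene and no treatment. Groups of 6 mice were sampled as adults at 10 weeks of age (W10), at day 18 of gestation (P18), at day 7 of lactation (Lac7) and at day 3 of involution (Inv3), the regression of the gland after weaning. The labels give an age for the adult mice only. The deposited design text places lactation at day 3 and involution at day 7, whereas the study's methods have them at day 7 and day 3. The names of the lactating libraries also give day 7, and those of the involuting libraries give no day. The days of the study's methods were taken here. The RNA came from powdered whole gland, so a change in RPM can stem from the share of epithelial cells in the tissue or from the amount of a miRNA per cell, and these cannot be told apart.

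The miR-200 family is best known as a set of epithelial miRNAs. Its 3p arms bind the transcripts of ZEB1 and ZEB2, repressors of the E-cadherin gene, and thereby help to maintain the epithelial state, while loss of the family is a familiar feature of the epithelial to mesenchymal transition. In the mammary gland the epithelium grows into alveoli during pregnancy, secretes milk during lactation and is removed by cell death during involution. From each precursor hairpin an arm on either side can be released, and the arm that is loaded into the silencing complex pairs with its targets mainly through its seed.

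The family arose from 2 clusters in the mouse genome, both on the minus strand of GRCm38. Mir200b, Mir200a and Mir429 lay within 1846 bp at chr4:156053905-156055750, inside introns of the protein-coding gene Ttll10. On the annotated noncoding gene Gm13648, which runs over the same stretch, Mir200a and Mir200b were intronic and Mir429 exonic. Mir200c and Mir141 lay within 477 bp at chr6:124717914-124718390, inside an intron of the noncoding gene Gm15884, and Mir141 also partly overlapped an exon of Gm29008. The RefSeq table for GRCm38.p6 held a sequence for all 9 members. The 3p arms are shown first because the family divides by seed in another way than by cluster. Capitals mark the seed, bases 2 to 8.
mmu-miR-200a-3p: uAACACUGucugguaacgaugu
mmu-miR-141-3p: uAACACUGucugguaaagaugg
mmu-miR-200b-3p: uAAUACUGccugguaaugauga
mmu-miR-429-3p: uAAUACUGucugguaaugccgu
mmu-miR-200c-3p: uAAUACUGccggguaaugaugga

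The seed AACACUG was shared by miR-200a-3p and miR-141-3p, of which the first belongs to the chromosome 4 cluster and the second to the chromosome 6 cluster. The seed AAUACUG was shared by miR-200b-3p, miR-429-3p and miR-200c-3p. No other miRNA among the 1738 mature sequences of the table carried either seed. Across the clusters the members came in closely related pairs. Counted from the 5′ end, miR-141-3p differed from miR-200a-3p by C17A and U22G over 22 bases, and miR-200c-3p differed from miR-200b-3p by U11G and A22G, with an additional base at its 3′ end. How reads that fit both members of a pair were divided is not given in the sources used here, so the values of each pair may contain reads of its partner.

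The 5p arms are shown because the arms of miR-200b and miR-141 are compared across stages further on. The seed AUCUUAC was shared by miR-200a-5p and miR-200b-5p, whereas miR-200c-5p and miR-141-5p each had a seed found in no other sequence of the table.
mmu-miR-200a-5p: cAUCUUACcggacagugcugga
mmu-miR-200b-5p: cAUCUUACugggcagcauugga
mmu-miR-200c-5p: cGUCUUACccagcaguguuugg
mmu-miR-141-5p: cAUCUUCCagugcaguguugga

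Each library held 660346 to 1165321 reads on miRNAs, so that 1 read was worth 0.858 to 1.51 RPM and the limit that a count of 0 allows was 2.57 to 4.54 RPM (3 reads, counting error only). Depth differed between stages, with a median of 693167 reads in the lactating mice and 952080 to 1030978 reads at the other stages. The 24 libraries were from 24 mice. Among all 1009 miRNAs, the other epithelial miRNAs chosen as a check of the tissue (miR-183-5p, miR-96-5p, miR-182-5p, miR-205-5p, miR-203-3p and miR-375-3p) were listed in all 6 cases, and none of them was at 0 throughout a stage. RPM counts reads of a short sequence, and the chemistry of library preparation favors some sequences over others, so an order of levels between different miRNAs is an order of read numbers.

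The family's share of all miRNA reads climbed from adulthood to lactation and dropped at involution. The 9 members together took 1.71% ± 0.208 of the reads in adult mice, 5.90% ± 0.564 in pregnant mice, 12.5% ± 0.836 in lactating mice and 4.97% ± 2.55 in involuting mice (mean ± SD, n = 6 each). The ranges of the first 3 stages were separate, at 1.51 to 2.10%, 5.03 to 6.48% and 11.6 to 13.6%. The involuting mice ranged from 2.36 to 7.98%, and thus spread from just above the adult mice to above the pregnant mice.

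Nearly all of these reads came from the 3p arms. Their sum averaged 16769 RPM at W10, 57591 RPM at P18, 122543 RPM at Lac7 and 48605 RPM at Inv3, against 286, 1376, 2681 and 1055 RPM for the sum of the 4 5p arms. Within the family, miR-200a-3p took 50.0%, 58.0%, 59.0% and 61.6% of the reads at W10, P18, Lac7 and Inv3, respectively, and miR-200b-3p took 27.3%, 24.5%, 25.0% and 22.9%. By mean RPM, miR-200a-3p ranked 22nd among the 1009 miRNAs in adult mice and 4th in lactating mice, and miR-200b-3p ranked 34th and 10th.

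**Figure D1:**
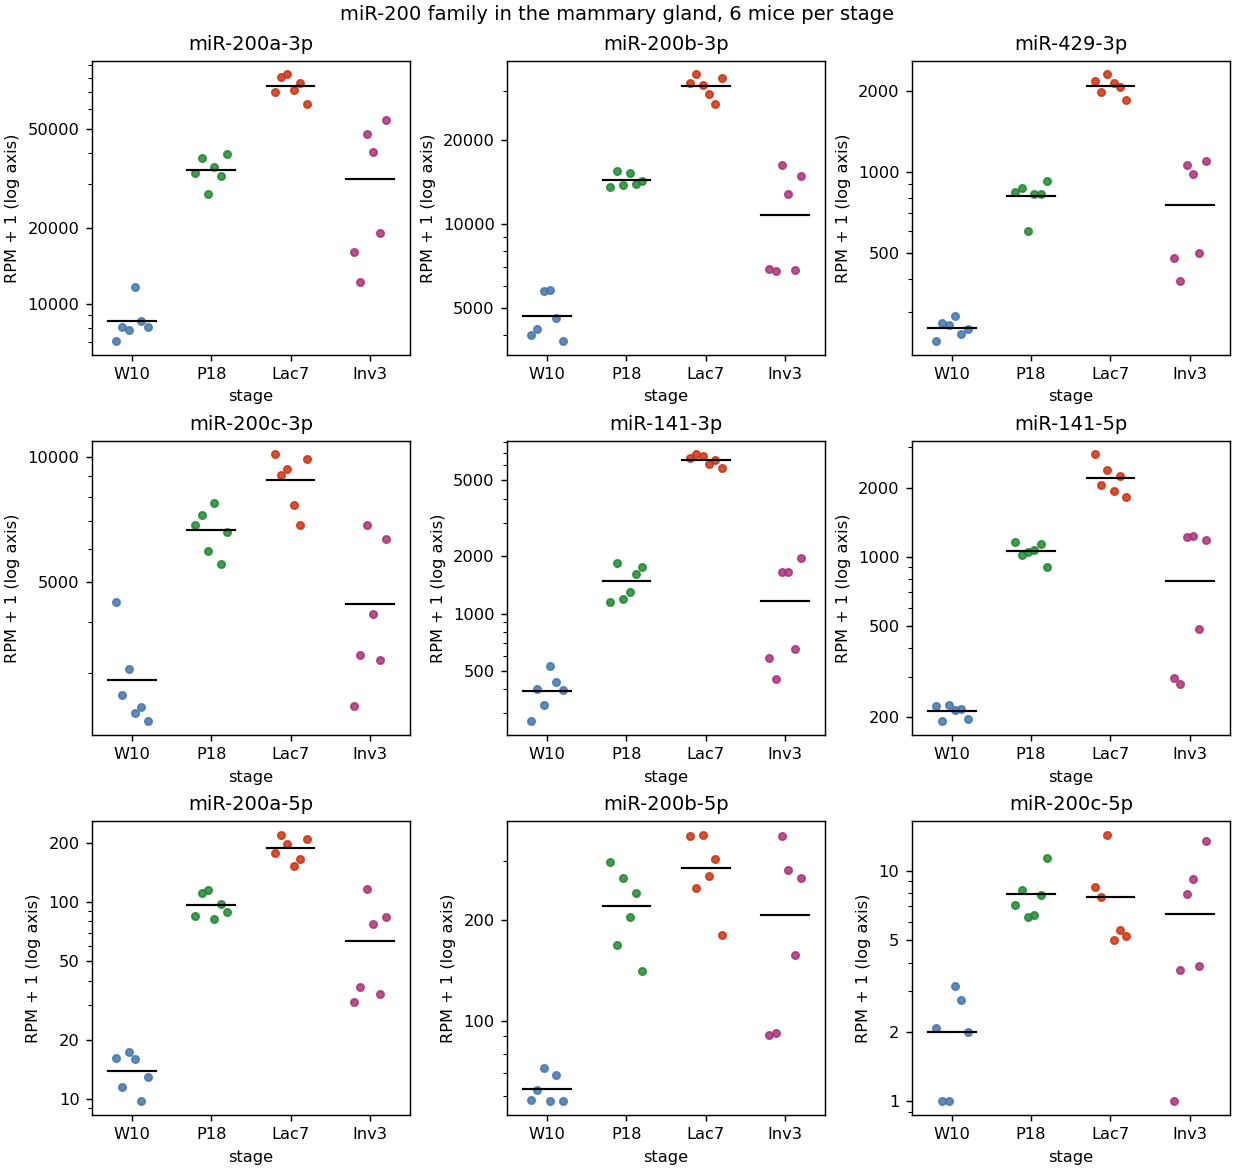
RPM + 1 on a log axis for each of the 9 members, with 1 point per mouse, 6 mice per stage and a line at the arithmetic mean. Every member has all 6 pregnant mice above all 6 adult mice, and the involuting mice are the most widely spread for most members.

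The members of the chromosome 4 cluster followed the same course in their 3p arms. For miR-200a-3p, the lowest, median and highest values were 7072, 8089 and 11694 RPM in adult mice, 27361, 34236 and 39510.1 RPM in pregnant mice, 62672, 73920.3 and 82433 RPM in lactating mice, and 12214, 29694 and 53996 RPM in involuting mice. For miR-200b-3p they were 3782, 4393 and 5786 RPM at W10, 13596, 14105 and 15439 RPM at P18, 26942, 31741 and 34464 RPM at Lac7, and 6768, 9839 and 16315 RPM at Inv3. The adult, pregnant and lactating mice did not overlap for either of these arms, and all involuting mice lay above the adult and below the lactating mice. The least abundant 3p arm of this cluster, miR-429-3p, ran at a small and nearly constant fraction of miR-200b-3p. Its values were 233, 264 and 289 RPM at W10, 599, 833 and 918 RPM at P18, 1839.9, 2099 and 2296 RPM at Lac7, and 392, 739 and 1091 RPM at Inv3.

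The 3p arms of the chromosome 6 cluster diverged from each other. For miR-200c-3p the lowest, median and highest values were 2293, 2571 and 4456 RPM at W10, 5506, 6732 and 7761 RPM at P18, 6836, 9206 and 10155 RPM at Lac7, and 2504, 3744 and 6855 RPM at Inv3. Its pregnant and lactating mice overlapped, as did its involuting mice with every other stage. For miR-141-3p they were 271, 396 and 528 RPM at W10, 1151, 1454 and 1836 RPM at P18, 5838, 6509.6 and 6844 RPM at Lac7, and 454, 1150.5 and 1954 RPM at Inv3. The lactating mice stood far above all others for miR-141-3p, with their lowest value above the highest value of any other stage. Its partner from the same hairpin, miR-141-5p, reached 191 to 225 RPM at W10, 901 to 1156 RPM at P18, 1817 to 2791 RPM at Lac7 and 279 to 1233 RPM at Inv3.

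The remaining 5p arms were scarce. From its lowest to its highest mouse, miR-200a-5p ran from 8.75 to 16.5 RPM at W10, 81.35 to 114 RPM at P18, 152 to 219 RPM at Lac7 and 30.0 to 116 RPM at Inv3. The range of miR-200b-5p was 56.7 to 71.3 RPM, 140.2 to 297 RPM, 179.8 to 357 RPM and 90.1 to 355 RPM at the same stages. Of these 2 arms, miR-200b-5p overlapped between pregnant and lactating mice and miR-200a-5p did not. The rarest member was miR-200c-5p, with 6 reads in all 6 adult libraries together, 40 in the pregnant, 28 in the lactating and 30 in the involuting libraries, and it was at 0 in 2 adult libraries and 1 involuting library. Its mean was 0.995 RPM at W10 and 6.89, 6.715 and 5.52 RPM at P18, Lac7 and Inv3. It thus reached the 1 RPM needed for testing only through the stages other than W10. The 5p arm of miR-429, which is no member of the set, had at most 1 read in any library.

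Between adult and pregnant mice, all 9 members were differentially expressed and higher at P18. A miRNA was called with a Benjamini-Hochberg adjusted p under 0.05 in limma and a log2 fold change of at least 1 in size, on the log2(RPM + 1) scale, and 7.54% of the 544 miRNAs tested were called higher in this comparison. The 6 pregnant mice lay above the 6 adult mice without overlap for 9 of 9 members, as for 9.74% of all miRNAs tested. Both counts include miR-200c-5p, which was tested only because it reached 1 RPM at stages other than W10. All its adult values lay below the limit that a count of 0 allows, so its place in these counts carries little weight. The median log2 fold change was 1.91 over the members (range 1.23 to 2.82) and -0.32 over all miRNAs tested. With libraries scaled by size factors, these medians were 2.16 and -0.09.

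With a pseudocount of 1 RPM, the gain was smallest for miR-200c-3p and largest for miR-200a-5p, but the order depends on the pseudocount for the arms with few adult reads. With 0.1 RPM the largest value was that of miR-200c-5p (3.47, against 2.90 for miR-200a-5p), and with 10 RPM it was that of miR-141-5p (2.27, against 2.21 for miR-200a-5p), while miR-200c-5p was smallest at 0.62 and was not called. The log2 fold change at P18 was 1.23 ± 0.20 (SE) for miR-200c-3p (adjusted p = 9.0e-06, limma), which corresponds to a ratio of mean RPM of 2.30. It was 2.82 ± 0.26 for miR-200a-5p (adjusted p = 2.7e-09), whose mean rose from 13.0 to 96.0 RPM. The 2 abundant arms rose by 2.01 ± 0.25 for miR-200a-3p (adjusted p = 2.4e-07) and by 1.64 ± 0.18 for miR-200b-3p (adjusted p = 5.4e-08). For miR-141 the log2 fold changes were 1.91 ± 0.27 for the 3p arm and 2.32 ± 0.28 for the 5p arm, and for miR-429-3p it was 1.62 ± 0.20. The value of miR-200c-5p, 2.09 ± 0.46, rests on the 6 adult reads mentioned above.

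**Figure D2:**
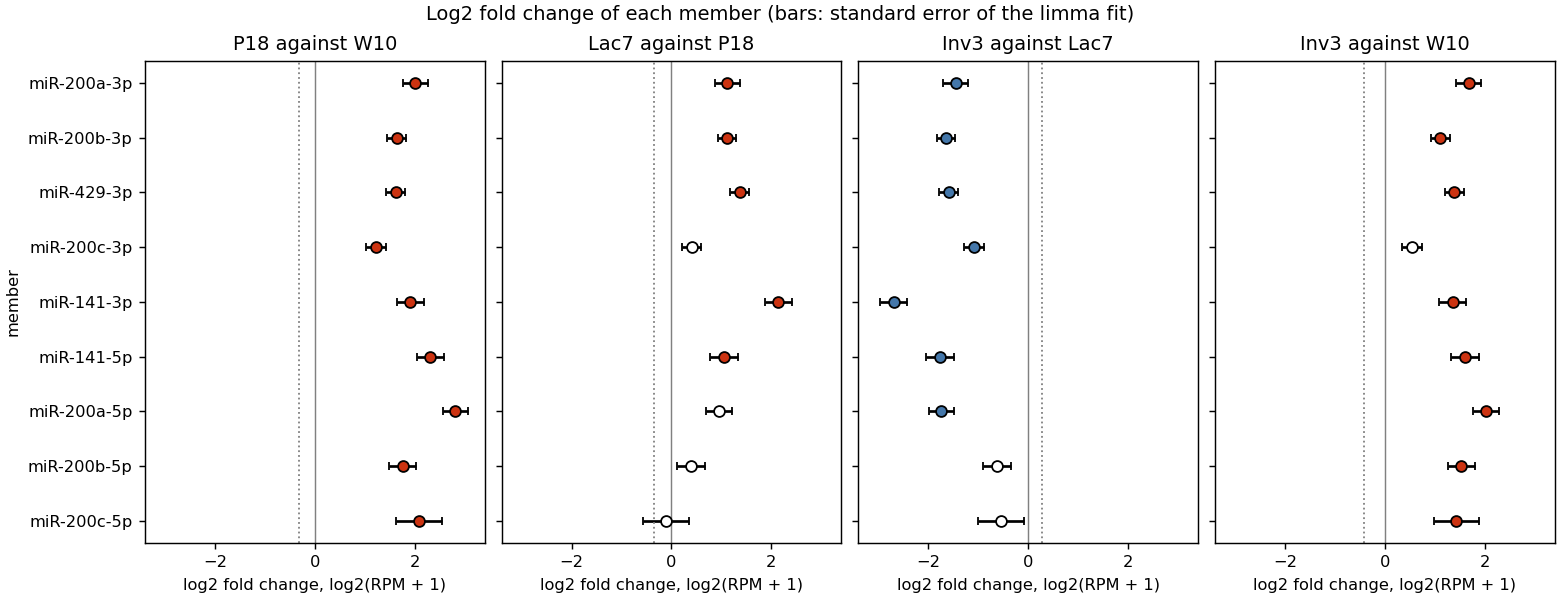
Log2 fold change of each member in 4 comparisons, with bars for the standard error of the limma fit. Red points were called higher and blue points lower, white points were not called, and the dotted line marks the median of all 544 miRNAs tested, at -0.32, -0.34, 0.28 and -0.41 from left to right.

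From pregnancy to lactation, 5 of the 9 members were called higher, against 7.54% of all miRNAs tested. They were 4 of the 5 3p arms, with miR-200c-3p as the exception, and 1 of the 4 5p arms, miR-141-5p. Every lactating mouse lay above every pregnant mouse for 6 members, as for 9.93% of all miRNAs tested. The median log2 fold change was 1.05 over the members and -0.34 over all miRNAs tested, or 1.36 and -0.13 with size factors.

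The largest rise at this step was that of miR-141-3p, with a log2 fold change of 2.14 ± 0.27 (adjusted p = 2.2e-07, limma) and a mean that went from 1474 to 6411 RPM. The chromosome 4 arms rose by 1.11 ± 0.25 for miR-200a-3p (adjusted p = 5.7e-04), 1.12 ± 0.18 for miR-200b-3p (adjusted p = 1.3e-05) and 1.37 ± 0.20 for miR-429-3p (adjusted p = 2.1e-06). By contrast, miR-200c-3p from the same cluster as miR-141-3p had a log2 fold change of 0.40 ± 0.20 (adjusted p = 0.095, limma). It was 0.71 with size factors (adjusted p = 0.0028, limma), 0.71 with DESeq2 (adjusted p = 0.0014) and 0.57 with edgeR (adjusted p = 0.026). A fit of only the 12 libraries compared gave an adjusted p of 0.0055 (limma). Other pseudocounts and filters and a mouse block gave 0.078 to 0.16 (limma). In all of these settings miR-200c-3p stayed under the fold limit. For miR-141-5p the rise was 1.05 ± 0.28 (adjusted p = 0.0027), and 0.98 without lactating mouse 1, under the fold limit. The log2 fold change of miR-200a-5p was 0.95 ± 0.26 (adjusted p = 0.0033), which missed the fold limit, whereas with size factors it was 1.25 and was called. The values of miR-200b-5p and miR-200c-5p were 0.39 ± 0.27 (adjusted p = 0.26) and -0.11 ± 0.46 (adjusted p = 0.87), and the second was positive, at 0.15, with size factors. The first was 0.69 with size factors (adjusted p = 0.039, limma), 0.66 with DESeq2 (adjusted p = 0.031) and 0.53 with edgeR (adjusted p = 0.12), under the fold limit.

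From lactation to involution, 7 of the 9 members were called lower, against 10.3% of all miRNAs tested. These were all 5 3p arms together with miR-200a-5p and miR-141-5p. Every involuting mouse lay below every lactating mouse for 6 members, as for 11.2% of all miRNAs tested. The median log2 fold change was -1.59 over the members and 0.28 over all miRNAs tested, or -1.77 and 0.17 with size factors.

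The arm that had risen most at lactation also fell most. The log2 fold change of miR-141-3p was -2.70 ± 0.27 (adjusted p = 4.8e-09, limma), from a mean of 6411 to 1158 RPM. Those of miR-200a-3p, miR-200b-3p and miR-429-3p were -1.45 ± 0.25 (adjusted p = 2.9e-05), -1.64 ± 0.18 (adjusted p = 4.1e-08) and -1.59 ± 0.20 (adjusted p = 1.9e-07). For miR-200c-3p the value was -1.09 ± 0.20 (adjusted p = 4.9e-05), and without involuting mouse 1 it was -0.94, under the fold limit. The 5p arms of miR-200a and miR-141 fell by 1.74 ± 0.26 and 1.76 ± 0.28 on the log2 scale. Neither miR-200b-5p, at -0.62 ± 0.27 (adjusted p = 0.064), nor miR-200c-5p, at -0.55 ± 0.46 (adjusted p = 0.35), passed the test. For miR-200b-5p the value was -0.80 with size factors (adjusted p = 0.017, limma) and -0.65 with DESeq2 (adjusted p = 0.038). It was -0.51 with edgeR (adjusted p = 0.13), and all 3 values were under the fold limit.

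Compared with adult mice, 8 of the 9 members were called higher in involuting mice, against 5.51% of all miRNAs tested. The groups did not overlap for 6 members, as for 2.94% of all miRNAs tested. The median log2 fold change was 1.43 over the members and -0.41 over all miRNAs tested, or 1.77 and -0.09 with size factors. It was 1.68 ± 0.25 for miR-200a-3p (adjusted p = 7.1e-06, limma), 1.39 ± 0.20 for miR-429-3p, 1.36 ± 0.27 for miR-141-3p and 1.11 ± 0.18 for miR-200b-3p (adjusted p = 2.4e-05). The last was 0.97 without involuting mouse 3 and 0.998 without involuting mouse 6, in both cases under the fold limit. The 5p arms gave 2.03 ± 0.26 for miR-200a-5p, 1.61 ± 0.28 for miR-141-5p, 1.53 ± 0.27 for miR-200b-5p and 1.43 ± 0.46 for miR-200c-5p (adjusted p = 0.013, limma). The value of miR-200c-5p rests on 6 adult reads, and its groups overlapped. With a pseudocount of 0.1 or 10 RPM, 7 members were called. The member that was not called with 1 RPM, miR-200c-3p, had a log2 fold change of 0.55 ± 0.20 (adjusted p = 0.027) and the smallest ratio of mean RPM, 1.52. Comparisons that share a stage share its 6 mice, so the steps up and down are not independent of each other.

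The balance between the clusters was taken within each library, as the summed RPM of the 3p arms of miR-200a, miR-200b and miR-429 over that of miR-200c and miR-141. In adult mice the lowest, median and highest ratios were 2.39, 4.31 and 6.07, in pregnant mice 5.65, 5.97 and 6.61, in lactating mice 6.23, 7.31 and 7.93, and in involuting mice 5.13, 7.62 and 9.30. The chromosome 4 cluster thus gave more reads in every library. The mean log2 ratio was 0.56 ± 0.18 (SE) higher at P18 than at W10 (two-sided exact permutation test over the 924 divisions of 12 mice, p = 0.0108, adjusted p = 0.0325 over 24 tests of ratios) and 0.83 ± 0.22 higher at Inv3 than at W10 (exact permutation test, adjusted p = 0.0173). The lowest adult ratio was that of mouse 1. Without this mouse the first difference was 0.40 with an adjusted p of 0.052 by exact permutation. Leaving out any other mouse except adult mouse 4 and pregnant mouse 2 also moved that adjusted p to 0.052 or 0.058. In those cases the difference itself stayed at 0.54 to 0.59, and the test had fewer divisions of the mice. The other steps were 0.21 ± 0.070 from P18 to Lac7 (exact permutation test, adjusted p = 0.0520) and 0.06 ± 0.14 from Lac7 to Inv3 (adjusted p = 0.702, exact permutation).

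The sums are governed by their most abundant arms, so the cluster ratio follows miR-200a-3p, miR-200b-3p and miR-200c-3p. When the logarithms of the arms were averaged instead, so that each arm counted alike, the differences were 0.18 from W10 to P18 (exact permutation test, adjusted p = 0.052), -0.07 from P18 to Lac7 (adjusted p = 0.22, exact permutation) and 0.33 from Lac7 to Inv3 (exact permutation test, adjusted p = 0.0074). The direction of the change in the cluster ratio from P18 to Lac7 thus depended on whether the arms were weighted by their reads.

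Grouped by seed rather than by cluster, the balance shifted toward the AACACUG arms. The summed RPM of miR-200b-3p, miR-429-3p and miR-200c-3p over that of miR-200a-3p and miR-141-3p had a mean log2 ratio of -0.18 ± 0.31 (SD, n = 6) in adult, -0.70 ± 0.14 in pregnant, -0.93 ± 0.21 in lactating and -0.92 ± 0.38 in involuting mice. In linear terms the medians were 0.829, 0.609, 0.510 and 0.513. The difference was -0.52 ± 0.14 (SE) from W10 to P18 (exact permutation test, adjusted p = 0.0173) and -0.74 ± 0.20 from W10 to Inv3 (exact permutation test, adjusted p = 0.0297). Leaving out 1 mouse moved the adjusted p of the second above 0.05 for 7 of 12 mice (adult mice 1 to 3 and involuting mice 3 to 6), with differences of -0.75 to -0.65. With logarithms averaged in place of sums, this call was also lost (-0.50, exact permutation test, adjusted p = 0.074), and the following steps passed the test, with differences of -0.67 between Lac7 and P18 and of 0.63 between Inv3 and Lac7 (exact permutation tests, adjusted p = 0.0074 for both). With sums these steps were -0.23 ± 0.10 (adjusted p = 0.116, exact permutation) and 0.01 ± 0.18 (adjusted p = 0.944, exact permutation).

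The members of the chromosome 6 cluster changed their proportion most plainly at lactation. The ratio of miR-141-3p to miR-200c-3p had a median of 0.161 in adult mice (range 0.0607 to 0.220), 0.227 in pregnant mice (0.167 to 0.292), 0.735 in lactating mice (0.591 to 0.940) and 0.237 in involuting mice (0.137 to 0.395). This ratio was chosen after its values were seen and is given without a test. The lactating mice lay above all other mice. Set against miR-200a-3p, with which it shares its seed and all but 2 of its bases, miR-141-3p had median ratios of 0.0469, 0.0440, 0.0849 and 0.0361, and again all lactating mice were highest, from 0.0810 to 0.0940. Within the chromosome 4 cluster, the median ratio of miR-429-3p to miR-200b-3p only ran from 0.0562 to 0.0711 over the stages. The ratio of miR-200a-3p to miR-200b-3p had medians of 1.89, 2.38, 2.40 and 2.86.

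**Figure D3:**
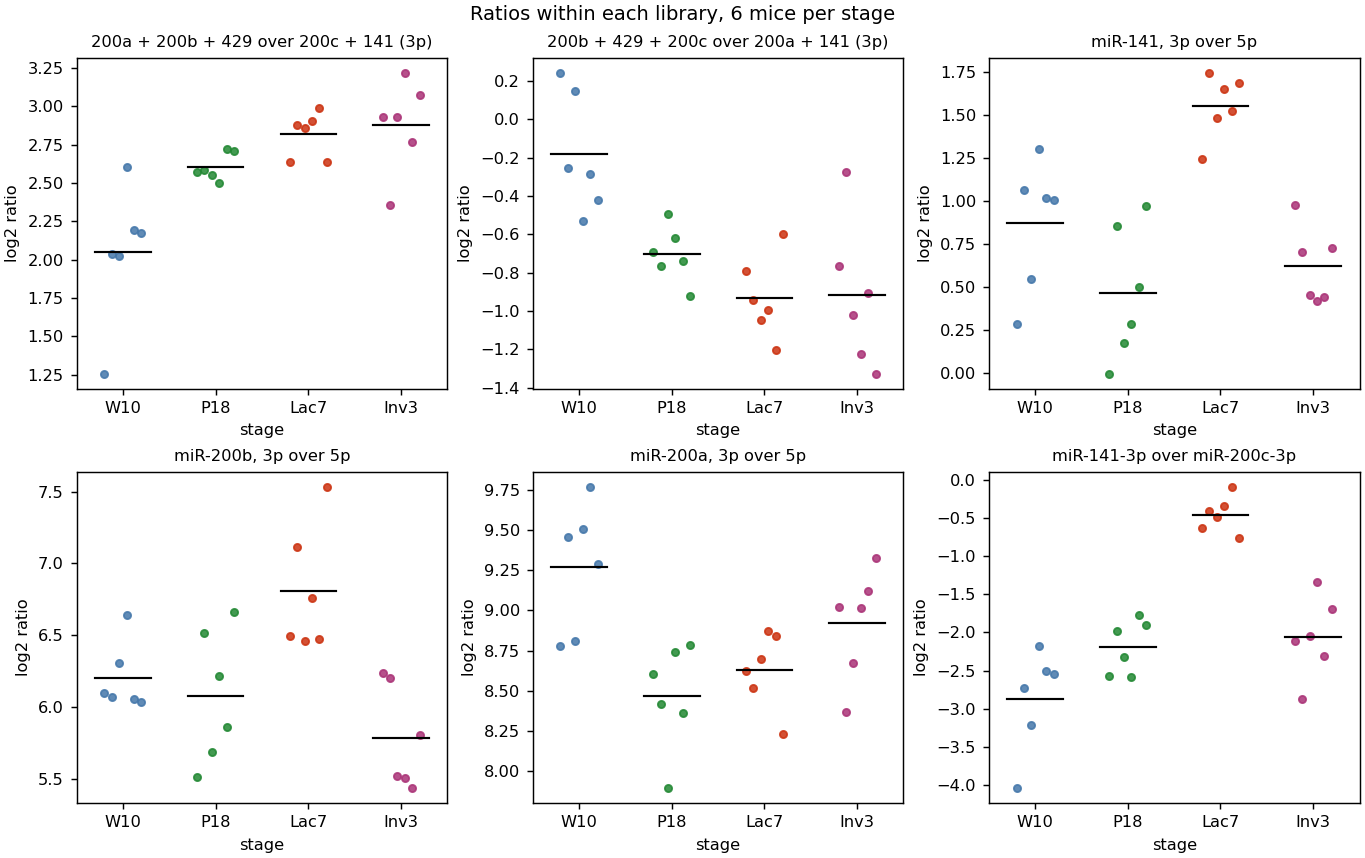
Log2 ratios within each library for 6 pairs or sums of members, with 1 point per mouse, 6 mice per stage and a line at the mean. The lactating mice are separate from the pregnant and the involuting mice for miR-141, 3p over 5p, and all lactating mice are the highest for miR-141-3p over miR-200c-3p.

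The arms of miR-141 shifted with lactation as well. The hairpins of Mir141 and Mir200b are shown here because their arm ratios differed between stages, with the 5p and then the 3p arm in capitals.
Mir141: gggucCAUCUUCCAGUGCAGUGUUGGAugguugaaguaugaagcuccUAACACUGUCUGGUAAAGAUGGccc
Mir200b: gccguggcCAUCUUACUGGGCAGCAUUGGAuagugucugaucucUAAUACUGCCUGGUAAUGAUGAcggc

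For miR-141 both arms were abundant, and the ratio of 3p to 5p (each RPM + 1) had a lowest, median and highest value of 1.22, 2.01 and 2.46 in adult mice, 0.996, 1.32 and 1.96 in pregnant mice, 2.36, 3.00 and 3.35 in lactating mice, and 1.34, 1.495 and 1.96 in involuting mice. The lactating mice did not overlap with the pregnant or the involuting mice. The log2 ratio differed by 1.09 ± 0.17 (SE) between Lac7 and P18 and by -0.94 ± 0.12 between Inv3 and Lac7 (exact permutation tests, p = 0.0022, the smallest that 6 against 6 mice can give, adjusted p = 0.0173 for both). The differences from W10 were -0.41 ± 0.22 at P18 (exact permutation test, adjusted p = 0.142) and -0.25 ± 0.18 at Inv3 (adjusted p = 0.241, exact permutation).

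For miR-200b the 3p arm exceeded the 5p arm by a median factor of 67.9 in adult, 66.4 in pregnant, 99.1 in lactating and 50.9 in involuting mice. The ratio ranged from 87.9 to 185 in lactating mice and from 43.4 to 75.4 in involuting mice, without overlap. Its log2 value differed by -1.02 ± 0.23 between these stages (exact permutation test, adjusted p = 0.0173). From P18 to Lac7 the difference was 0.73 ± 0.26 (exact permutation test, adjusted p = 0.0520), and the pregnant mice, at 45.7 to 101, overlapped with the lactating mice.

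The arm ratio of miR-200a moved at another step. Its median was 665 in adult, 365 in pregnant, 405 in lactating and 519 in involuting mice, and the log2 ratio differed by -0.80 ± 0.21 between pregnant and adult mice (exact permutation test, adjusted p = 0.0173). The adult libraries held only 10 to 15 reads of miR-200a-5p, and with a pseudocount of 10 RPM in place of 1 RPM this difference was -0.20 (exact permutation test, adjusted p = 0.40). For miR-200c none of the 4 arm comparisons passed the test with a pseudocount of 1 RPM. Between pregnant and adult mice the difference passed in opposite directions with other pseudocounts. It was -2.24 with 0.1 RPM and 0.61 with 10 RPM (exact permutation tests, adjusted p = 0.04 and 0.035). With 9 or fewer reads of its 5p arm in any library, the direction of 3 of the 4 comparisons changed with the pseudocount.

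In the involuting mice the family varied more than at any other stage. Members with a mean of at least 100 RPM had a median coefficient of variation of 18.8% in adult, 12.8% in pregnant, 11.98% in lactating and 53.2% in involuting mice, whereas over all miRNAs at that level it was 21.0%, 15.0%, 12.4% and 22.6%. At Inv3 the members' coefficients ran from 40.6 to 60.9%. A wide spread at Inv3 was not particular to the family, as the 5 miRNAs nearest to its course (described below) also had it. Their means at Inv3 were 2192 ± 1069 RPM (SD) for miR-182-5p, 187 ± 97.35 RPM for miR-96-5p and 775 ± 403 RPM for miR-183-5p. For miR-190a-5p and miR-181a-1-3p they were 64.3 ± 44.7 and 34.3 ± 16.4 RPM. The members moved together across the mice. Mice 1, 2 and 5 had the 3 lowest values for 9 of 9 members at Inv3, and the family sum was 2.70%, 2.36% and 3.10% of reads in these mice and 7.52%, 6.15% and 7.98% in mice 3, 4 and 6. At W10, P18 and Lac7, only 1, 2 and 2 members had the same 3 lowest mice as the family sum. The 3 mice were picked by the family sum itself, to which miR-200a-3p and miR-200b-3p give most of the reads. The share of all miRNAs with the same 3 lowest mice was not counted, so this order is not shown to be particular to the family.

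**Figure D4:**
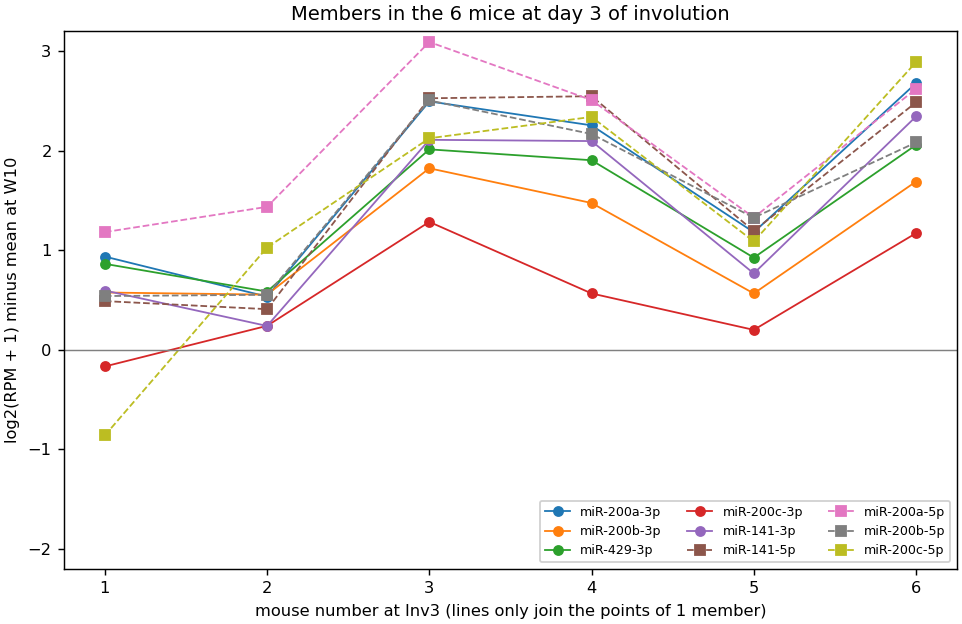
Log2(RPM + 1) of the 9 members in each of the 6 involuting mice, minus the member's mean in the adult mice. Solid lines and circles are 3p arms, dashed lines and squares 5p arms. Mice 1, 2 and 5 are the 3 lowest for all 9 members.

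Other miRNAs differed between the same mice. The summed level of the 6 other epithelial miRNAs was 6351, 6446 and 4980.4 RPM in involuting mice 1, 2 and 5, and 8523, 7499.7 and 8542 RPM in mice 3, 4 and 6. The sum of 6 miRNAs typical of fibroblasts and smooth muscle was 334906, 302761 and 350093 RPM in mice 1, 2 and 5, and 276649, 284577 and 257041 RPM in mice 3, 4 and 6. Most of this sum was miR-143-3p, with a mean of 246200 RPM at Inv3. The leukocyte sum of 5 miRNAs was highest in mice 1 and 2, at 23991 and 23764 RPM, and was 13122 to 17372 RPM in the others. The sum of 2 endothelial miRNAs was 12987, 12532 and 15656 RPM in mice 1, 2 and 5, and 16725, 17959 and 17703 RPM in mice 3, 4 and 6. The part of these cell types in the spread of the family was not tested.

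Across the stages the marker lists moved as follows. The other epithelial list ranged from 5614 to 10479 RPM at W10, 9407 to 11423 RPM at P18, 13384 to 15176 RPM at Lac7 and 4980.4 to 8542 RPM at Inv3. Of its 6 miRNAs, 3 were called higher at P18 than at W10, 3 higher and 1 lower at Lac7 than at P18, 1 higher and 3 lower at Inv3 than at Lac7, and 4 higher and 0 lower at Inv3 than at W10. The sum was carried in good part by miR-203-3p, whose mean was 5653 RPM at W10 and 3044 RPM at Inv3. Over all miRNAs tested, the directions not given above took 20.0% called lower at P18 against W10, 22.6% lower at Lac7 against P18, 16.5% higher at Inv3 against Lac7 and 19.5% lower at Inv3 against W10. The one that fell at lactation and rose at involution was miR-205-5p, known for basal epithelial cells, with means of 437, 461, 155 and 688 RPM at W10, P18, Lac7 and Inv3. The leukocyte list ranged from 25590.3 to 48957 RPM, 7094.6 to 23550 RPM, 3993 to 12161 RPM and 13122 to 23991 RPM at the 4 stages, with 4 of 5 miRNAs called lower at P18 than at W10, 4 of 5 lower at Lac7 than at P18, 5 of 5 higher at Inv3 than at Lac7 and 3 of 5 lower at Inv3 than at W10. The one not called at the first steps, miR-223-3p, had log2 fold changes of -0.62 (adjusted p = 5.2e-04) and -0.58 (adjusted p = 0.0011), under the fold limit. The fibroblast and smooth muscle list ranged from 170091 to 212055 RPM, 191202 to 215025 RPM, 147091 to 171333 RPM and 257041 to 350093 RPM, with 2 of 6 miRNAs called lower at P18 than at W10, 3 of 6 lower at Lac7 than at P18, 4 of 6 higher at Inv3 than at Lac7, and 1 higher and 2 lower at Inv3 than at W10. The remaining miRNAs of this list at Inv3 against Lac7, miR-143-3p at 0.82 (adjusted p = 1.6e-08) and miR-145a-5p at 0.95 (adjusted p = 4.2e-05), had an adjusted p under 0.05 but missed the fold limit. The sum was carried in good part by miR-143-3p, with means of 92350, 145500, 138500 and 246200 RPM at the 4 stages. At Inv3 against W10 its log2 fold change was 1.41 and that of miR-145a-5p 0.71. Those of miR-199a-3p, miR-199a-5p, miR-199b-5p and miR-214-3p were -0.76, -0.65, -1.26 and -1.34.

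Skeletal muscle miRNAs (4 listed) summed to 2378 to 24031 RPM at W10, 194 to 2420 RPM at P18, 104 to 5001 RPM at Lac7 and 215 to 947 RPM at Inv3, with 3 of 4 called lower at P18 than at W10, 2 of 4 lower at Inv3 than at Lac7 and 4 of 4 lower at Inv3 than at W10. Red blood cell miRNAs (3 listed) summed to between 371 and 1953 RPM over all libraries, and 2 of 3 were called lower at P18 than at W10. The other one, miR-144-3p, was called higher at Lac7 than at P18 (log2 fold change 1.56, adjusted p = 1.1e-05) and lower at Inv3 than at Lac7 (-1.97, adjusted p = 3.1e-07), as most members of the miR-200 family were. Endothelial miRNAs (2 listed) summed to between 12532 and 19549 RPM, and neither was called in any comparison. The liver miRNA miR-122-5p was at most 1.99 RPM in adult mice and reached 2062 RPM in pregnant mouse 6 and 626 RPM in involuting mouse 2. No miRNA of any list was at 0 in all 6 mice of a stage. The part of these cell types in the levels of the miR-200 family was not tested.

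The miRNAs whose course was most like that of the family were sought among 180 miRNAs that averaged 100 RPM or more in any group of mice. Likeness was the root mean square difference between their mean log2(RPM + 1) at the 4 stages and that of the summed 3p members, each centred on its own mean. The nearest were miR-96-5p and miR-182-5p, each at 0.21, followed by miR-190a-5p at 0.36, miR-183-5p at 0.36 and miR-181a-1-3p at 0.41. By the same measure the members themselves lay between 0.09 for miR-200b-3p and 0.50 for miR-141-3p, so that miR-96-5p and miR-182-5p were nearer to the sum than miR-200c-3p, at 0.45, and miR-141-3p. The sum is governed by miR-200a-3p and miR-200b-3p, so the small distances of these arms, 0.12 and 0.09, follow from their weight in it. Likeness to the sum is thus mainly likeness to these arms.

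Those neighbors include all of the 5p arms of the cluster of miR-183, miR-96 and miR-182, another epithelial set and one that was also in the other epithelial list. Mean levels of miR-182-5p were 715 ± 101 RPM at W10, 2038 ± 200.3 RPM at P18, 6564 ± 469 RPM at Lac7 and 2192 ± 1069 RPM at Inv3 (SD, n = 6). Those of miR-96-5p were 46.2 ± 14.5, 208 ± 37.7, 478 ± 68.0 and 187 ± 97.35 RPM. The profiles nearest to the family's turned upside down were those of miR-100-5p at 0.08, miR-199b-5p at 0.14 and miR-142a-3p at 0.16, of which the last is a leukocyte miRNA and miR-199b-5p a fibroblast one. Mean levels of miR-100-5p were 126 ± 49.6, 36.9 ± 12.95, 14.6 ± 3.45 and 52.7 ± 20.55 RPM at the 4 stages. These likenesses rest on 4 stage means from the same libraries and are given as a description.

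**Figure D5:**
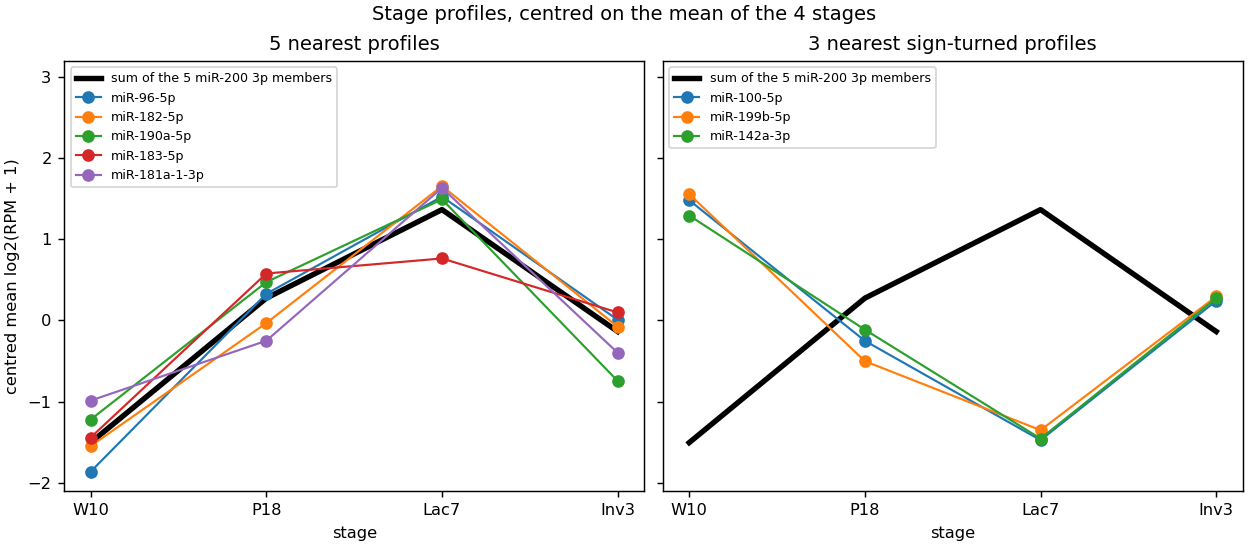
Mean log2(RPM + 1) at the 4 stages, centred on the mean of the stages, for the sum of the 5 miR-200 3p members (thick line) and, at left, the 5 miRNAs nearest to it and, at right, the 3 nearest to its sign-turned profile. The thick line runs from -1.51 at W10 over 0.28 at P18 and 1.37 at Lac7 to -0.14 at Inv3, and miR-100-5p from 1.48 over -0.25 and -1.48 to 0.24.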

How the data were processed

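Small RNA was extracted from the mammary glands of 24 mice with the mirVana kit, and libraries were made with the QIAseq miRNA kit. The authors assigned reads with QuickMIRSeq to miRBase 22 and deposited RPM, reads per 1000000 reads on the listed miRNAs, in 1 table. The submitters' processing notes also name GRCm38, Trimmomatic 0.36, cutadapt, FastQC and MultiQC. Whether molecular identifiers were counted is not given in the sources used here. All values of a library were whole multiples of 1 step (within 0.1 read for 100% of values), which gave the reads per library.

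Members were taken by name and libraries by label. The 544 miRNAs with a stage mean of at least 1 RPM were tested on log2(RPM + 1) with limma 3.58.1 (trend, 1 fit over 24 libraries, R 4.3.3), since the values were not counts. Calls needed an adjusted p under 0.05 and a log2 fold change of at least 1. The 24 tests of ratios were exact permutation tests (scipy 1.17.1) adjusted together. The members, lists and ratios were chosen with earlier results of these data known, and the code was tested on simulated data. All 9 members, the 5 miRNAs nearest to their course and the 3 nearest to its sign-turned form were named, with the marker lists. Alternatives were other pseudocounts, filters and scaling, edgeR 4.0.16 and DESeq2 1.42.0 on the recovered reads, leaving out each mouse, and the mouse number as a block.

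No libraries of a stage were alike within sampling noise (smallest chi-square per degree of freedom 9.63 over 60 pairs). The labels do not say whether mice were processed together. Sequences and positions came from RefSeq (GRCm38.p6), and host genes from GENCODE vM21.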

Additional observations from a re-analysis of the deposited data

Results flagged for a closer look

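Of 64 groups of 6 mice examined, 3 held a mouse that stood apart from the other 5, and chance alone gives about 1 in 20 such groups. Adult mouse 4 had the highest level of miR-200a-3p at W10, 11694 RPM, and the next mouse had 8508 RPM. Adult mouse 1 had the highest level of miR-200c-3p at W10, 4456 RPM, against 3063 RPM in the next. This mouse also had the lowest ratio between the clusters, the highest sum of the other epithelial miRNAs at W10 (10479 RPM) and the lowest leukocyte sum (25590.3 RPM). Pregnant mouse 3 had the lowest level of miR-429-3p at P18, 598.8 RPM, and the next had 822 RPM. The causes were not tested.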

How the results depend on the processing

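The number of members called was 9 of 9 at P18 against W10, or 8 with a pseudocount of 10 RPM and 8 of the 8 tested with a filter at 100 RPM. It ran from 5 to 6 at Lac7 against P18, was 7 throughout at Inv3 against Lac7 and ran from 7 to 8 at Inv3 against W10 under all planned settings, and from 9 to 9, 4 to 6, 6 to 7 and 7 to 8 with 1 mouse left out. Calls over all miRNAs, 150, 164, 146 and 136 in these comparisons, were 88, 82, 79 and 69 with a pseudocount of 10 RPM and 69, 67, 66 and 59 with a filter at 100 RPM, which tested 188 miRNAs. With 1 mouse left out they ran from 145 to 155, 157 to 170, 135 to 158 and 119 to 146. Of the calls, 27.3%, 25.0%, 61.6% and 22.1% were higher, against 38.7%, 39.1%, 54.5% and 38.2% with size factors, 46.6%, 34.4%, 58.9% and 45.9% with edgeR, and 44.6%, 45.1%, 52.5% and 48.5% with DESeq2. Mouse numbers did not pair the samples: deviations of 33 same-numbered pairs had a mean correlation of -0.05 (lowest -0.79) over 188 miRNAs. With the number as a replicate block, 150, 163, 146 and 127 miRNAs and 9, 5, 7 and 8 members were called.

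The log2 fold change of miR-200c-5p at Lac7 against P18 turned positive with size factors (0.15), edgeR (0.12), DESeq2 (0.25), and ran from -0.31 to 0.0018 with 1 mouse left out. Its arm ratio changed with the pseudocount, by construction of a ratio with few reads: at P18 against W10 it was -2.24 with 0.1 RPM and 0.61 with 10 RPM, at Lac7 against P18 0.435 with 10 RPM, at Inv3 against Lac7 0.0059 with 0.1 RPM and -0.95 with 10 RPM, and at Inv3 against W10 0.098 with 10 RPM. Of these miR-200c values, all but 0.0059 and 0.098 passed the test. With 10 RPM, the arm ratio of miR-200a was -0.20 at P18 and 0.15 at Inv3 against W10, and that of miR-200b was 0.0066 at P18 against W10. At Lac7 against P18 the latter was 0.73 with 0.1 RPM and 0.74 with 10 RPM and passed the test. With mean logarithms, the cluster ratio differed by 0.18, -0.074 and 0.33 at the 3 successive steps, which lost the first call and gained the last, and the seed ratio by -0.67 at Lac7 against P18 and 0.63 at Inv3 against Lac7, both now past the test, and -0.50 at Inv3 against W10, no longer past it. With 1 mouse left out, the cluster ratio ran from 0.40 to 0.67 at P18 against W10, 0.18 to 0.25 at Lac7 against P18 and -0.0059 to 0.17 at Inv3 against Lac7, and the seed ratio from -0.29 to -0.17 at Lac7 against P18, -0.12 to 0.093 at Inv3 against Lac7 and -0.87 to -0.65 at Inv3 against W10. The arm ratio of miR-200b ran from 0.58 to 0.84 at Lac7 against P18 and -0.51 to -0.33 at Inv3 against W10, and that of miR-200c from 0.38 to 0.69 at Lac7 against P18 and -0.86 to -0.36 at Inv3 against Lac7. Depth limits what can be said of miR-200c-5p, which had 9 or fewer reads in any library.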
